A study of Homo sapiens with 10 samples.

Results

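The genes described here are 47 members of the WNT signalling pathway, taken from a list of gene names. They comprise 18 WNT ligands, 10 frizzled receptors, 5 co-receptors and other WNT receptors, 4 secreted antagonists, 4 TCF and LEF transcription factors, 4 R-spondin receptors and membrane ubiquitin ligases, and 2 intracellular feedback genes. All 47 were found among the 60642 gene symbols of the deposited table. Bulk RNA-seq was performed on untreated cells of 5 human prostate cancer lines, LNCaP, DUCAP, VCAP, DU145 and PC3, giving 10 samples, 2 biological repeats of each line. Each group is 1 established line, and the labels name no added agent and no engineered allele in any of them. LNCaP was established from a lymph node metastasis, DU145 from a brain metastasis and PC3 from a bone metastasis, whereas DUCAP and VCAP came from different metastases of the same patient. The lines grew in phenol red-free RPMI with 5 to 10% serum and were harvested while dividing exponentially.

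WNT proteins are secreted lipid-modified ligands that bind a frizzled receptor together with the co-receptor LRP5 or LRP6. In the canonical branch this stops the destruction of beta-catenin, which enters the nucleus and activates genes through the TCF and LEF factors, while ROR and RYK receptors serve branches that do not need beta-catenin. Several target genes of the pathway restrain it in turn, among them AXIN2, NKD1, RNF43, ZNRF3 and DKK1, and in the prostate WNT signals take part in bud outgrowth and epithelial renewal.

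Levels are given as TPM, in which read numbers are divided by transcript length and set to a common sum, so that levels of different genes can be compared. The columns summed to between 982880 and 991998 TPM, and since TPM carry no read numbers, the depth of each library is unknown. Mitochondrial transcripts took 12.7 to 36.0% of a sample, with at least 32.1% in DUCAP and VCAP and at most 22.5% in the other lines. The 3 epithelial markers (EPCAM, KRT8 and KRT18) were at 1 TPM or more in both repeats of every line. All 5 luminal prostate markers were so in LNCaP, DUCAP and VCAP, against 3 in PC3 and 1 in DU145. The summed luminal level was 2466 to 8566 TPM in LNCaP, DUCAP and VCAP, 353 to 529 TPM in PC3 and 5.99 to 6.78 TPM in DU145, so it differed along with every gene below that separated those lines, and its part in those results was not tested. The PC3 sum was mostly HOXB13 (328 and 502 TPM, above every sample of the other lines). In PC3, TMPRSS2 was at 18.9 and 22.7 TPM, STEAP2 at 5.56 and 4.03 TPM, and KLK3 and KLK2 were at 0.77 TPM or less. Of the markers of other cell types, CD3E was listed at 0 in both repeats of every line, 5 fibroblast markers summed to at most 7.24 TPM outside PC3 (32.8 to 39.4 TPM), and 3 leukocyte markers summed to 74.0 to 101 TPM in DU145 and 34.4 to 38.9 TPM in PC3, nearly all of it CD68, with PTPRC at 0.12 TPM or less in every sample. The fibroblast sum of PC3 was nearly all COL1A1 (31.5 and 38.0 TPM), with the other fibroblast markers at 0.86 TPM or less there.

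Of the 47 genes, 28 reached 5 TPM in at least 1 sample, 11 peaked between 1 and 5 TPM, and 8 never exceeded 1 TPM. At 1 TPM or more in both repeats there were 26 genes in PC3, 24 in DU145, 23 in VCAP, 21 in LNCaP and 17 in DUCAP, and 13 were so in every line. Among the 28 genes that reached 5 TPM, the line with the highest mean was PC3 for 12, DU145 for 7, VCAP for 4, DUCAP for 3 and LNCaP for 2. The highest line stood apart, with both repeats above all 8 other samples, for 10, 6, 4, 1 and 1 of these genes in the same order. None of these counts was taken over all genes, and the levels were not scaled between samples. They therefore do not show whether the 47 genes differ in this from genes in general. In bulk RNA, fewer cells with a transcript and less of it per cell cannot be told apart. The heat map of all 47 genes shows the whole pattern by sample.

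**Figure D1:**
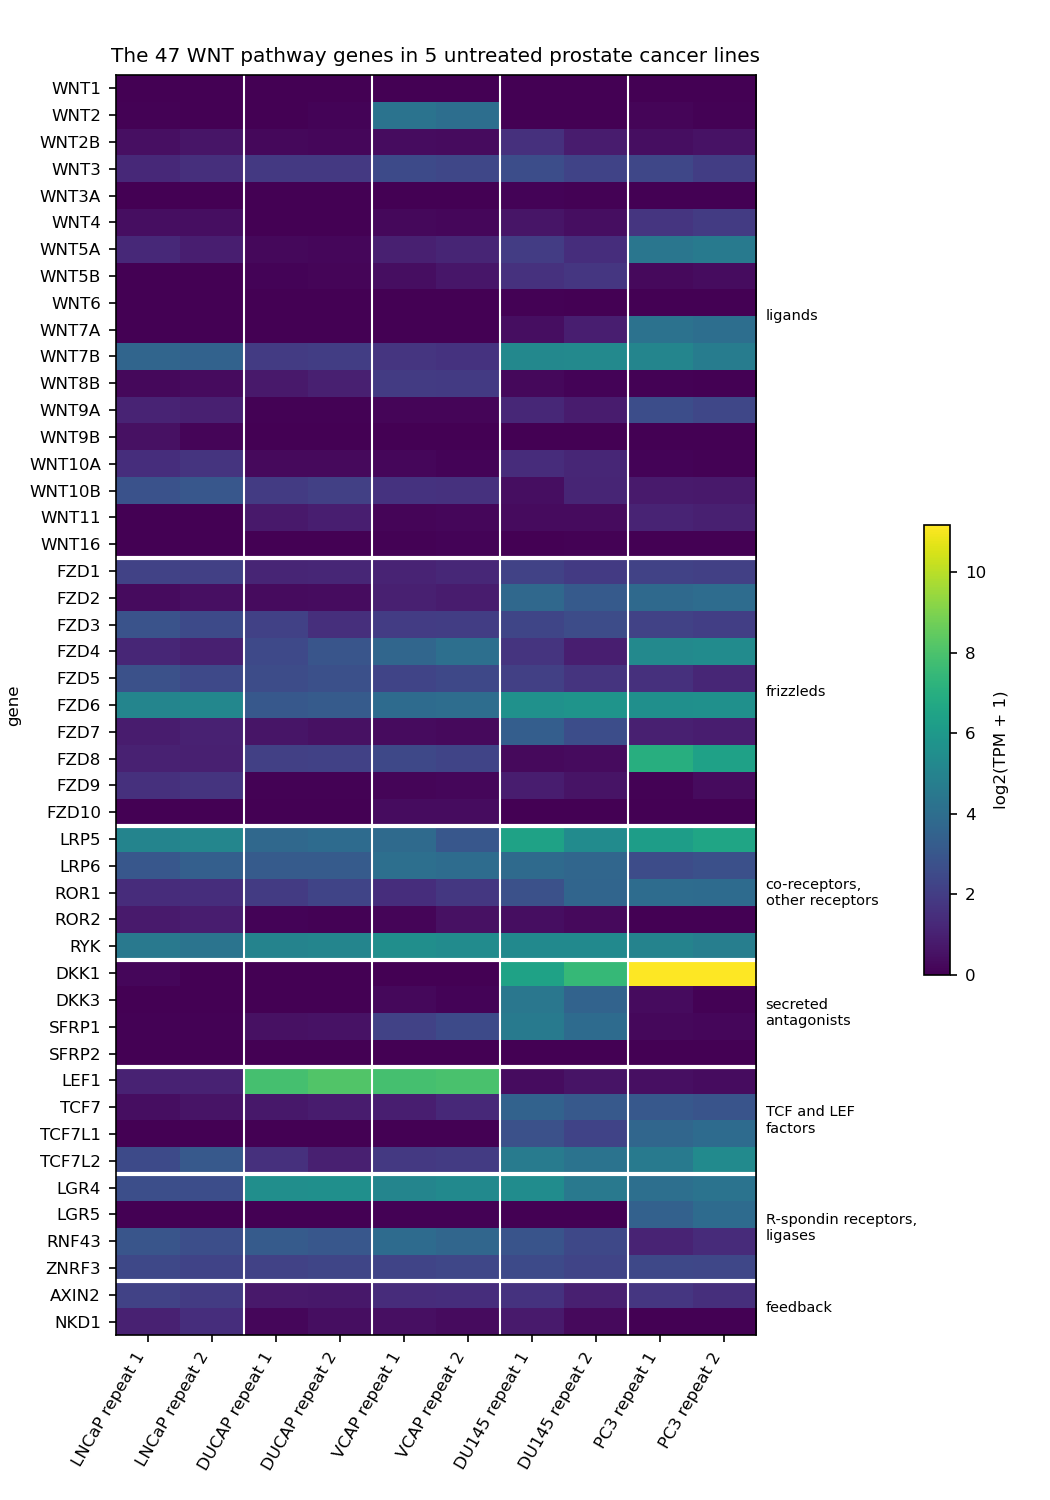
Levels of the 47 genes as log2(TPM + 1), in colour, with genes as rows grouped by role and the 10 samples as columns (2 repeats per line). The brightest cells are DKK1 in PC3 (2302 and 2296 TPM) and LEF1 in DUCAP and VCAP (231 to 276 TPM), and WNT1 is at 0 in every sample.

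The ligands differed in kind as well as in amount between the lines. The 18 ligands summed to 76.4 to 84.1 TPM in PC3, 50.8 to 53.1 TPM in DU145, 29.3 to 32.2 TPM in VCAP, 24.6 to 24.7 TPM in LNCaP and 10.5 to 11.7 TPM in DUCAP, and the ranges of the 5 lines did not overlap. WNT7B, a ligand of epithelial cells, was the most abundant in LNCaP, DU145 and PC3, and took 68.2 to 73.3% of the ligand total in DU145. In VCAP the leading ligand was WNT2, with 53.3 to 55.6% of the total, and in DUCAP it was WNT10B, with 27.2 to 28.5%.

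WNT7B was at 32.5 and 24.8 TPM in PC3, 36.2 and 37.3 in DU145, 11.5 and 10.3 in LNCaP, 2.35 and 2.14 in VCAP, and 2.82 and 3.06 in DUCAP. Both repeats of DU145 and of PC3 lay above every sample of the other 3 lines, and the mean TPM of DU145 was 16.4 times that of VCAP. WNT7A, its close relative, was at 17.2 and 15.6 TPM in PC3 and 0.34 and 0.92 in DU145, and was listed at 0 in every sample of LNCaP and DUCAP and at 0 and 0.02 in VCAP. Nearly all of the WNT7A signal was thus in PC3, and the mean TPM of PC3 was 26.1 times that of DU145.

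WNT5A, the main ligand of the branch that does not need beta-catenin, was at 20.0 and 23.3 TPM in PC3, 2.95 and 1.77 in DU145, 1.44 and 0.91 in LNCaP, 1.00 and 1.24 in VCAP, and 0.17 and 0.15 in DUCAP. PC3 stood above all other samples, with a mean TPM 9.18 times that of DU145, and DUCAP was lowest. WNT9A was at 5.15 and 4.17 TPM in PC3, 1.37 and 0.79 in DU145, 1.17 and 1.00 in LNCaP, 0.11 and 0.10 in VCAP, and 0.06 and 0.05 in DUCAP. It had its highest values in PC3 too, while LNCaP and DU145 overlapped.

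WNT2 was at 17.9 and 15.6 TPM in VCAP, and lay between 0 and 0.11 TPM in the 8 samples of the other lines. DUCAP, the line that shares a patient with VCAP, had 0.02 and 0.09 TPM, and the mean of VCAP was 305 times that of DUCAP. WNT10B was at 0.76 and 0.70 TPM in PC3, 0.33 and 1.22 in DU145, 6.01 and 7.10 in LNCaP, 2.14 and 2.00 in VCAP, and 2.86 and 3.35 in DUCAP. LNCaP was highest and DU145 and PC3 lowest, and these 2 overlapped. WNT3, a canonical ligand, was at 4.24 and 3.13 TPM in PC3, 5.21 and 3.70 in DU145, 1.46 and 1.80 in LNCaP, 4.74 and 4.15 in VCAP, and 2.64 and 2.67 in DUCAP. Its values in VCAP, DU145 and PC3 overlapped, and LNCaP was lowest.

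The other 11 ligands stayed below 5 TPM. WNT4 peaked at 2.35 and 2.80 TPM in PC3, WNT5B at 2.01 and 2.36 TPM in DU145, WNT8B at 2.85 and 2.70 TPM in VCAP, and WNT10A at 1.78 and 2.22 TPM in LNCaP. Each of these was above every sample of the other lines. WNT2B reached 1.91 and 0.78 TPM in DU145 and WNT11 reached 1.14 and 0.99 TPM in PC3. WNT3A, WNT6, WNT9B and WNT16 were at 0.41 TPM or less throughout.

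The receptors were led by a different frizzled in PC3 than in the rest. Frizzleds are the seven-pass receptors that bind WNT proteins at the cell surface. The 10 genes summed to 195 to 236 TPM in PC3, 78.0 to 86.2 TPM in DU145, 53.3 to 53.6 TPM in LNCaP, 40.0 to 44.8 TPM in VCAP and 26.0 to 27.7 TPM in DUCAP. These sums, like those of the other roles, were not scaled between samples, and the order of lines with close sums can depend on that. FZD6 held the largest share in every sample of LNCaP, DUCAP and DU145, FZD8 in both of PC3, and in VCAP FZD6 led in repeat 1 and FZD4 in repeat 2.

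**Figure D2:**
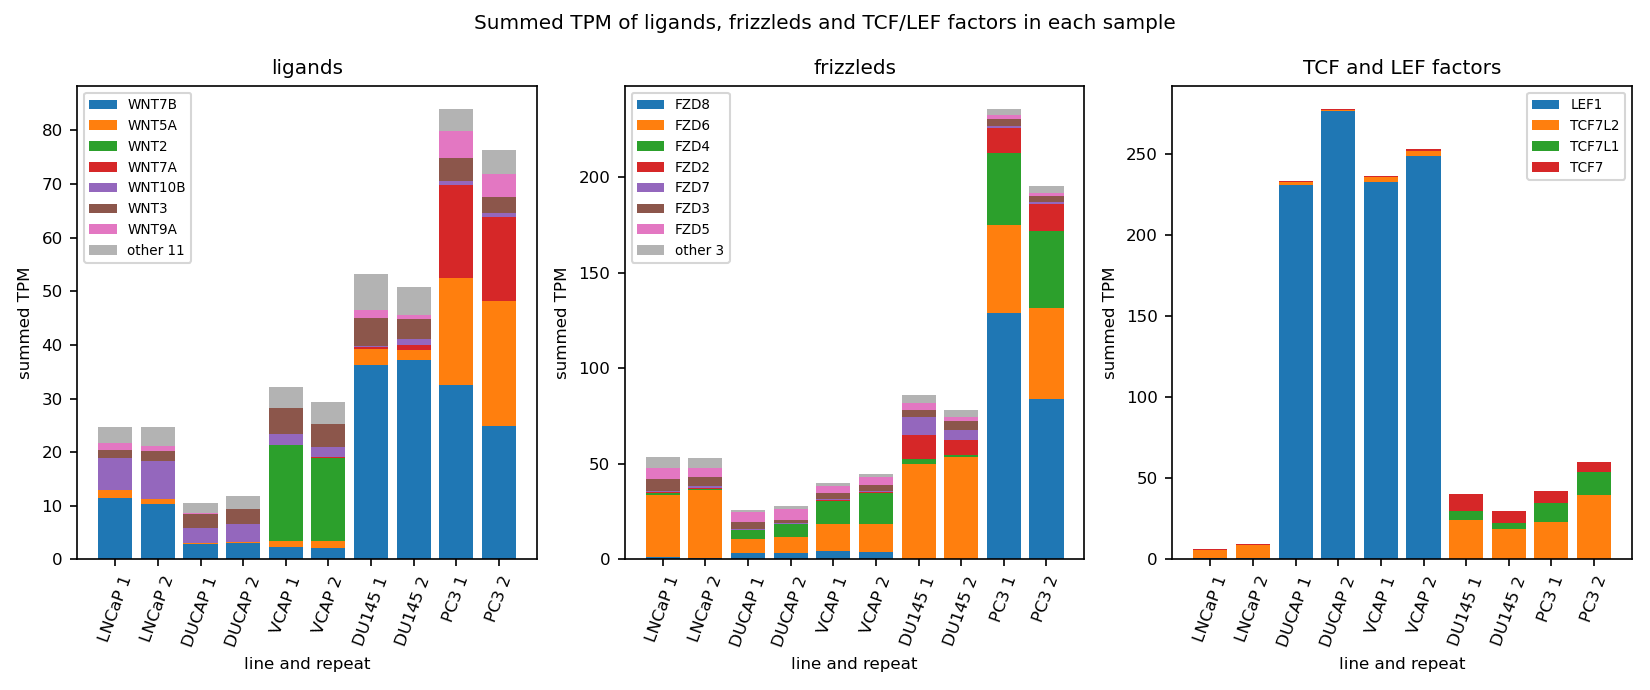
Summed TPM (vertical axis, from 0, not scaled between samples) of the ligands, the frizzleds and the TCF and LEF factors in each of the 10 samples, stacked by gene, with the genes of lower peak level pooled in grey. The ligand and frizzled bars are tallest in PC3 (76.4 to 84.1 and 195 to 236 TPM), and the factor bars are tallest in DUCAP and VCAP (234 to 278 TPM), where LEF1 fills them almost entirely.

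FZD8 was at 129 and 83.9 TPM in PC3, 0.22 and 0.24 in DU145, 1.03 and 0.95 in LNCaP, 4.30 and 3.86 in VCAP, and 3.36 and 3.41 in DUCAP. PC3 was 26.1 times VCAP in mean TPM, although its 2 repeats were themselves well apart, and DU145 was lowest. FZD4, which also serves as the receptor of norrin, was at 37.6 and 40.3 TPM in PC3, 2.23 and 0.91 in DU145, 1.30 and 0.95 in LNCaP, 12.0 and 15.8 in VCAP, and 4.49 and 6.64 in DUCAP. Its levels fell into the order PC3, VCAP, DUCAP and then LNCaP and DU145, which overlapped, and PC3 was 2.80 times VCAP.

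FZD6 was at 46.0 and 47.6 TPM in PC3, 49.9 and 53.4 in DU145, 32.4 and 35.2 in LNCaP, 14.1 and 14.9 in VCAP, and 7.42 and 8.25 in DUCAP. No line overlapped another, and DU145 had 6.59 times the mean of DUCAP. FZD2 was at 13.3 and 14.3 TPM in PC3, 12.8 and 7.84 in DU145, 0.25 and 0.39 in LNCaP, 0.96 and 0.83 in VCAP, and 0.27 and 0.28 in DUCAP. It was at 1 TPM or more only in DU145 and PC3. FZD7 was at 0.98 and 0.84 TPM in PC3, 9.19 and 5.25 in DU145, 0.79 and 1.03 in LNCaP, 0.27 and 0.23 in VCAP, and 0.54 and 0.43 in DUCAP, so that DU145 had 7.93 times the mean of PC3.

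FZD5 was at 1.93 and 1.33 TPM in PC3, 3.34 and 2.17 in DU145, 5.88 and 4.56 in LNCaP, 3.95 and 4.34 in VCAP, and 5.11 and 5.55 in DUCAP. It ran opposite to FZD2, with the 4 samples of DU145 and PC3 below all others. FZD3, a receptor of axon guidance and planar polarity, was at 3.57 and 3.23 TPM in PC3, 4.08 and 5.00 in DU145, 6.30 and 4.75 in LNCaP, 2.93 and 3.06 in VCAP, and 3.50 and 1.80 in DUCAP. LNCaP overlapped DU145 and VCAP overlapped DUCAP. PC3 lay below LNCaP and DU145 and above VCAP, but DUCAP repeat 1 fell between its 2 values. FZD1 lay between 1.15 and 3.63 TPM, FZD9 reached 1.95 and 2.18 TPM in LNCaP, and FZD10 was at 0.29 and 0.30 TPM in VCAP and at 0 elsewhere.

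The co-receptors LRP5 and LRP6 did not follow each other. LRP5 was at 72.8 and 92.4 TPM in PC3, 84.5 and 40.3 in DU145, 32.4 and 34.4 in LNCaP, 13.5 and 7.24 in VCAP, and 12.8 and 14.1 in DUCAP. All samples of DU145 and PC3 were above the rest, and the DU145 repeats were further apart for LRP5 than for any other of the 47 genes, by 1.05 on the log2(TPM + 1) scale. LRP6 was at 5.01 and 5.55 TPM in PC3, 13.4 and 11.9 in DU145, 7.10 and 9.37 in LNCaP, 16.0 and 14.6 in VCAP, and 8.32 and 8.37 in DUCAP. It was thus highest in VCAP and lowest in PC3, the line with the highest mean of LRP5.

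RYK, a kinase-like WNT receptor, was at 30.6 and 26.1 TPM in PC3, 37.9 and 38.1 in DU145, 21.6 and 18.9 in LNCaP, 45.5 and 41.3 in VCAP, and 30.5 and 33.4 in DUCAP. Without scaling between samples, it was among the most even of the abundant genes, with 2.14 times as much in VCAP as in LNCaP. ROR1, a receptor of WNT5A, was at 14.4 and 14.1 TPM in PC3, 5.73 and 11.3 in DU145, 1.66 and 1.76 in LNCaP, 1.73 and 2.47 in VCAP, and 2.84 and 3.88 in DUCAP. The samples of DU145 and PC3 lay above all others, and ROR2, the other receptor of this pair, did not exceed 0.86 TPM in any sample.

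Secreted antagonists keep ligands from their receptors, and they held the widest range of levels of all roles. The 4 genes summed to 2296 to 2302 TPM in PC3, 129 to 200 TPM in DU145, 3.78 to 4.79 TPM in VCAP, 0.42 to 0.47 TPM in DUCAP and 0.10 to 0.24 TPM in LNCaP. DKK1, which binds LRP5 and LRP6 and removes them from the ligand, made up 99.98 to 99.99% of this sum in PC3.

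DKK1 was at 2302 and 2296 TPM in PC3, 85.2 and 176 in DU145, 0.14 and 0.03 in LNCaP, 0 and 0 in VCAP, and 0 and 0 in DUCAP. The PC3 repeats ranked it 37 and 36 among all gene symbols of their samples, and the mean of PC3 was 17.6 times that of DU145. The DU145 repeats were 1.04 apart on the log2(TPM + 1) scale, yet both lay far above the 6 samples of the other lines. SFRP1, a secreted frizzled-related protein that binds WNT ligands, was at 0.18 and 0.13 TPM in PC3, 23.6 and 13.9 in DU145, 0.05 and 0.04 in LNCaP, 3.60 and 4.72 in VCAP, and 0.42 and 0.47 in DUCAP. DKK3, a divergent member of the DKK family, was at 20.5 and 10.8 TPM in DU145 and between 0 and 0.24 TPM in the 8 other samples. The antagonists of DU145 were therefore mixed, whereas PC3 had DKK1 and almost none of the other 3. SFRP2 was at 0.02 TPM or less.

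DKK1 is known as a direct target of TCF and LEF factors. Of the core that these bind, the form taken here was CTTTGA, or TCAAAG when read from the opposite strand. Other forms of the core were not searched. The 250 bases before each start listed for a gene were searched for this form on both strands in the RefSeq sequences of GRCh38.p14, where 32 of the 47 genes matched an entry by symbol. The other 15 were not searched, among them the target genes AXIN2, NKD1 and ZNRF3. Of 35116 such windows over all genes, 11.2% held this form at least once and 0.977% held it 2 or more times. Among the 39 windows of the 32 genes, 1 held it, that of DKK1, with a reverse copy starting 149 bases and a forward copy starting 95 bases before the gene's start. The entry of LEF1 starts inside the annotated span of the gene, so its window is not the sequence before the gene's outermost start. DKK1 lies at chr10:52314281-52317657, and its window is chr10:52314031-52314280 on the plus strand. The window is shown 5′ to 3′ beside those of FZD8 (chr10:35642297-35642546, minus strand) and WNT7A (chr3:13880072-13880321, minus strand), chosen after their values were seen as members that, like DKK1, were highest in PC3 and stood apart there. Capitals mark this form of the core only, and a match of these letters is a description of the sequence and not evidence of binding.
DKK1: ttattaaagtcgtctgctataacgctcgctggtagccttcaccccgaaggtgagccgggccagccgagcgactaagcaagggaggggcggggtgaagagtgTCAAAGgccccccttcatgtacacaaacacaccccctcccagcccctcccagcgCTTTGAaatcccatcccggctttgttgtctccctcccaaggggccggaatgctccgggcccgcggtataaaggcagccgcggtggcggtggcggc
FZD8: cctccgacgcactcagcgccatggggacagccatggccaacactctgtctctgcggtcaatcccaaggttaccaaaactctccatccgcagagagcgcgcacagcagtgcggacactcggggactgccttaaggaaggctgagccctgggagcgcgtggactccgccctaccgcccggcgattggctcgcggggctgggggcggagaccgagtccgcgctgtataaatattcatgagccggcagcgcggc
WNT7A: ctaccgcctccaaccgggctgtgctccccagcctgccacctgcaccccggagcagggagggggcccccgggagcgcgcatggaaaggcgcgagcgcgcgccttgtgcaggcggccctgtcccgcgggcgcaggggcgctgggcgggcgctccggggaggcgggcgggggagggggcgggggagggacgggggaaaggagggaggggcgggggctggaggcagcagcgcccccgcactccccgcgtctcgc
The windows of FZD8 and WNT7A do not hold these letters. Their GC content was 65.2 and 80.4%, against 62.8% for DKK1 and a median of 58.0% over all windows.

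The TCF and LEF factors, which carry the signal to DNA, showed the plainest division among the lines, since LEF1 was abundant where the other 3 were low. LEF1 was at 0.38 and 0.30 TPM in PC3, 0.28 and 0.49 in DU145, 1.07 and 1.11 in LNCaP, 233 and 249 in VCAP, and 231 and 276 in DUCAP. The 4 samples of DUCAP and VCAP overlapped with each other, and these lines had 233 and 221 times the mean of LNCaP. LEF1 made up 98.3 to 99.4% of the summed level of the 4 factors there and ranked between 305 and 339 among all symbols. It lies at chr4:108047548-108168932 in GRCh38.p14. ERG, whose fusion marks these lines, was at 122 to 199 TPM in the same 4 samples and at most 0.19 TPM in the others, and its part in the LEF1 difference was not tested.

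TCF7L2, the most widely expressed of the 4, was at 22.4 and 39.5 TPM in PC3, 23.9 and 18.1 in DU145, 4.74 and 7.81 in LNCaP, 2.66 and 2.87 in VCAP, and 1.95 and 0.97 in DUCAP. It was the leading factor in every sample of LNCaP, DU145 and PC3. TCF7L1, known mostly as a repressor, was at 5.76 and 3.77 TPM in DU145, 11.8 and 13.8 in PC3, and at 0.03 TPM or less in the 6 other samples. TCF7 was at 7.48 and 6.37 TPM in PC3, 10.5 and 7.76 in DU145, 0.34 and 0.50 in LNCaP, 0.91 and 1.43 in VCAP, and 0.65 and 0.80 in DUCAP. All 3 genes had every sample of DU145 and PC3 above every sample of the other lines.

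**Figure D3:**
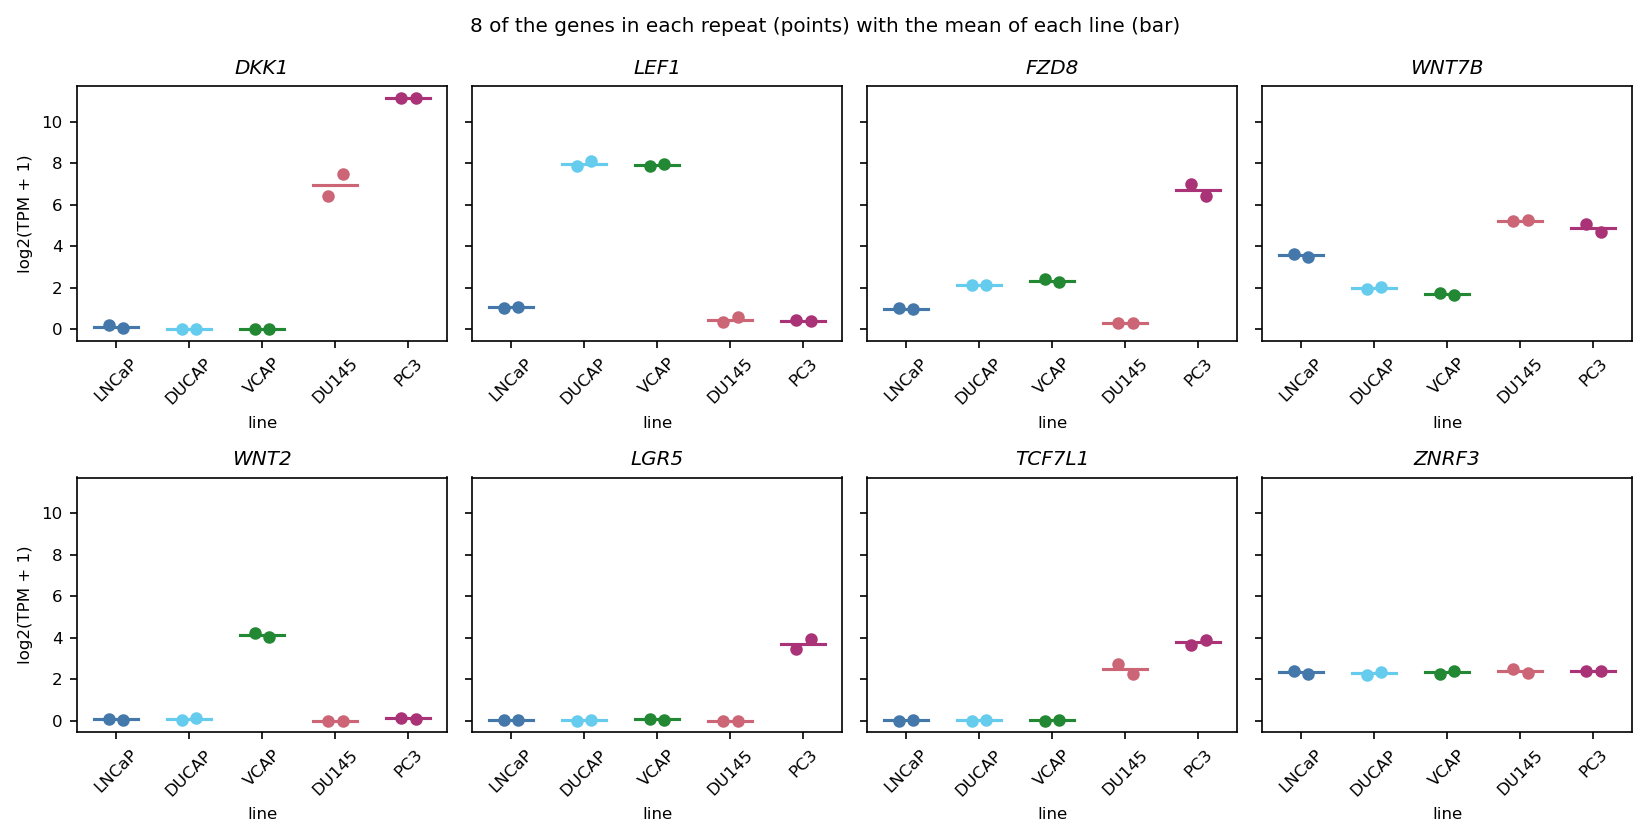
Level of 8 genes as log2(TPM + 1) in each of the 2 repeats of a line (points) with the line's mean (horizontal bar). DKK1 is above 1 TPM in DU145 and PC3 alone, WNT2 in VCAP alone and LGR5 in PC3 alone, LEF1 is at 231 to 276 TPM in DUCAP and VCAP and at most 1.11 TPM elsewhere, whereas ZNRF3 stays between 3.65 and 4.65 TPM in all 10 samples.

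R-spondin receptors and the membrane ligases RNF43 and ZNRF3 set how many frizzleds stay at the cell surface. LGR4 was at 16.2 and 18.0 TPM in PC3, 41.8 and 21.8 in DU145, 5.39 and 5.16 in LNCaP, 32.9 and 38.5 in VCAP, and 44.7 and 46.2 in DUCAP. LNCaP was lowest, with DUCAP at 8.62 times its mean, and the DU145 repeats spanned the range of VCAP. LGR5, a stem cell marker of the gut, was at 10.1 and 14.2 TPM in PC3, between 0 and 0.05 TPM in the other lines, and at 0 in both DU145 repeats.

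RNF43 was at 1.13 and 1.59 TPM in PC3, 6.37 and 4.35 in DU145, 6.79 and 5.43 in LNCaP, 14.2 and 11.8 in VCAP, and 8.24 and 7.17 in DUCAP. VCAP had 9.55 times the mean of PC3, and LNCaP and DU145 overlapped. ZNRF3 ranged only from 3.65 to 4.65 TPM over the 10 samples, without scaling between samples. Of the intracellular feedback genes, AXIN2, a scaffold of the beta-catenin destruction complex, was at 3.54 and 2.84 TPM in LNCaP and at 0.69 and 0.67 in DUCAP, with all other samples between 0.99 and 2.39 TPM. NKD1, an inhibitor of dishevelled, was at 1.01 and 1.73 TPM in LNCaP, at 0 in both PC3 repeats and between 0.16 and 0.76 TPM in the rest.

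Differences between the lines were then tested on log2(TPM + 1), with limma fitted to the 17520 genes that had at least 1 TPM in at least 2 samples and Benjamini-Hochberg adjustment over all of them. Of the 47 genes, 37 passed that filter and 10 did not (WNT1, WNT2B, WNT3A, WNT6, WNT9B, WNT11, WNT16, FZD10, ROR2 and SFRP2). Error was estimated from the difference between the 2 repeats of each line, and the p-values therefore hold for these 5 lines alone. In the test for any difference among the 5 lines, 36 of the 37 were called at an adjusted p under 0.05, ZNRF3 being the exception, and 90.8% of all tested genes were called. Nearly every gene differed between these lines, and the share among the 37 was close to that of genes in general.

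DU145 and PC3, which had fewer of the luminal markers at 1 TPM or more, were first set against LNCaP, DUCAP and VCAP. Of the 37 genes, 22 were higher and 8 lower in the mean of DU145 and PC3, and 7 were not called. A called gene need not differ in both lines. Among the 22, FZD8 and LGR5 were at 0.24 TPM or less in DU145, and DKK3 and SFRP1 were so in PC3. Over all genes, 51.9% were higher and 22.5% lower, and the median difference was 0.40 on the log2 scale, against 0.77 for the 37 genes. With quantile normalization the split was 19 higher and 12 lower, against 6019 and 6825 of the 17520 genes. With median-ratio scaling it was 20 and 10, against 6616 and 6092 of all genes. It was 21 and 8 when mitochondrial genes were removed and the rest rescaled, against 7811 and 4932 of 17505 genes. WNT3, named here after its value was seen, was the 1 called gene whose sign changed, from 0.42 to -0.11 with quantile normalization. Called or not, 7 of the 37 genes changed sign under at least 1 of these settings. ZNRF3, also named after its value was seen, was at 0.09 and not called without scaling. It was called lower at -0.46 with quantile normalization and at -0.30 with median-ratio scaling. With mitochondrial genes removed it was at -0.11 and not called. RYK, FZD4 and FZD1 were named likewise. RYK, at 0.11 and not called, was called lower at -0.44 with quantile normalization and at -0.36 with median-ratio scaling. FZD4, called at 0.76, was at 0.18 and 0.34 with these and not called. FZD1, called at 0.61, was at 0.14 and not called with quantile normalization. Both repeats of both lines lay above all 6 other samples for 12 genes and below them for 4, against 19.8% and 6.92% of all genes.

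**Figure D4:**
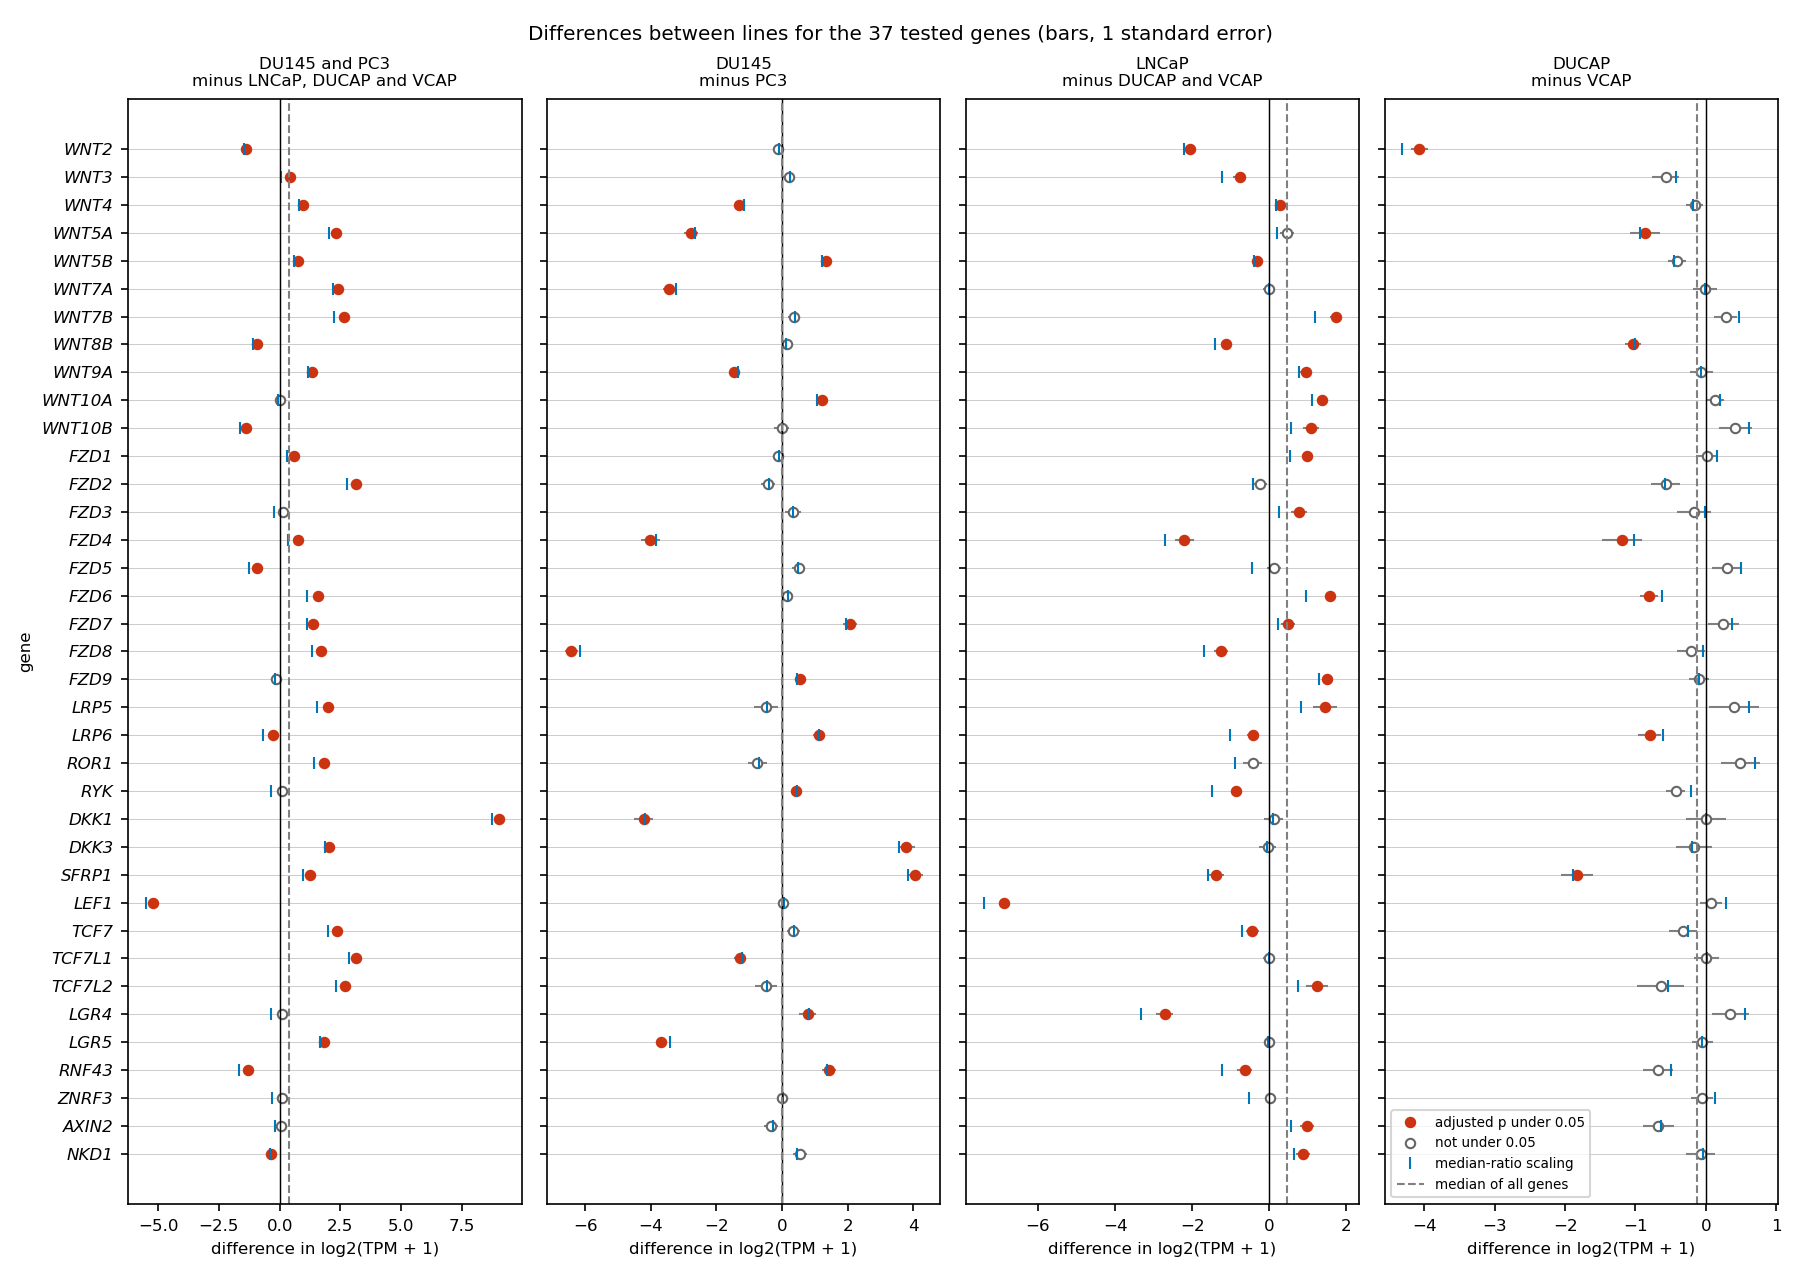
Differences in log2(TPM + 1) for the 37 tested genes in 4 contrasts (horizontal axes), with bars of 1 standard error. Filled points were called at an adjusted p under 0.05 (30, 19, 27 and 7 genes from left to right), blue ticks give the difference after median-ratio scaling, and the dashed line is the median of all tested genes.

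The largest of these differences was that of DKK1, at 9.02 (SE 0.19, adjusted p = 8.67e-09 with limma). It was followed by TCF7L1 at 3.13 (SE 0.12, adjusted p = 9.75e-08), FZD2 at 3.12 (SE 0.14, adjusted p = 2.42e-07) and TCF7L2 at 2.69 (SE 0.21, adjusted p = 7.12e-06). WNT7B at 2.64 (SE 0.11), WNT7A at 2.40 (SE 0.11), TCF7 at 2.36 (SE 0.13) and WNT5A at 2.31 (SE 0.14) completed the 8 largest, with adjusted p between 1.54e-07 and 1.24e-06. The WNT7A and WNT5A differences rested mainly on PC3, as their levels above show.

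Lower in DU145 and PC3 were LEF1 at -5.21 (SE 0.10, adjusted p = 6.75e-09), WNT10B at -1.40 (SE 0.15), WNT2 at -1.37 (SE 0.08), RNF43 at -1.31 (SE 0.14), WNT8B at -0.93 (SE 0.08) and FZD5 at -0.91 (SE 0.14). The WNT2 value came from VCAP alone and that of LEF1 from DUCAP and VCAP, with LNCaP at about 1 TPM. The RNF43 difference rested mainly on PC3, since DU145 overlapped LNCaP. For LRP6, too, PC3 was lowest, and DU145 lay above LNCaP and DUCAP. NKD1 at -0.36 (SE 0.13, adjusted p = 0.0330) and LRP6 at -0.27 (SE 0.11, adjusted p = 0.0455) were close to the threshold. Without DU145 repeat 2, which gave NKD1 0.22 TPM against 0.76 TPM in repeat 1, the NKD1 difference was -0.23 with an adjusted p of 0.0972, and its call was lost in 6 of the 10 fits that left out 1 sample. For LRP6 the call was lost in 8 of these 10, while median-ratio scaling moved its difference to -0.70 and kept the call.

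DU145 and PC3 differed from each other in both directions. DU145 was higher for 10 of the 37 genes and lower for 9, and 18 were not called, against 23.8% and 25.5% of all genes. The antagonists took opposite sides, with SFRP1 at 4.05 (SE 0.23, adjusted p = 3.35e-06) and DKK3 at 3.79 (SE 0.25, adjusted p = 7.70e-06) higher in DU145 and DKK1 at -4.22 (SE 0.29, adjusted p = 9.61e-06) higher in PC3. FZD7 at 2.06 (SE 0.22), RNF43 at 1.42 (SE 0.21), WNT5B at 1.34 (SE 0.13), WNT10A at 1.22 (SE 0.13) and LRP6 at 1.12 (SE 0.17) were also higher in DU145. LGR4 was higher by 0.79 (SE 0.26, adjusted p = 0.0358), but without DU145 repeat 1 the difference was 0.33 (adjusted p = 0.0946) and without DU145 repeat 2 it was 1.25, and the call was lost in 9 of the 10 fits that left out 1 sample.

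On the PC3 side, FZD8 differed most, at -6.42 (SE 0.21, adjusted p = 2.11e-07), and after DKK1 came FZD4 at -4.01 (SE 0.28), LGR5 at -3.70 (SE 0.15) and WNT7A at -3.44 (SE 0.17). WNT5A at -2.77 (SE 0.21), WNT9A at -1.45 (SE 0.16) and WNT4 at -1.31 (SE 0.12) were higher in PC3 as well. LGR5 was listed at 0 in DU145, so its fitted difference depends on the added 1 TPM and was -6.92 when 0.1 TPM was added in its place. FZD2, FZD5 and FZD6 were not called between these 2 lines (adjusted p between 0.0780 and 0.401).

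LNCaP was next set against DUCAP and VCAP. Of the 37 genes 14 were higher in LNCaP, 13 were lower and 10 were not called, whereas 49.2% of all genes were higher and 15.5% lower. The median was 0.46 over all genes and 0.00 over the 37. With quantile normalization the split was 9 higher and 17 lower, against 5352 and 5149 of all genes. With median-ratio scaling it was 9 and 15, against 5365 and 5097. The median of all genes was 0.00 with both. With mitochondrial genes removed the split was 11 and 14, against 7145 and 3596. WNT7B at 1.73 (SE 0.14, adjusted p = 1.50e-05), FZD6 at 1.57 (SE 0.11), FZD9 at 1.49 (SE 0.12), WNT10A at 1.37 (SE 0.11), WNT10B at 1.09 (SE 0.20) and FZD1 at 0.98 (SE 0.13) were higher in LNCaP. LRP5 at 1.45 (SE 0.31, adjusted p = 0.00345) and TCF7L2 at 1.24 (SE 0.29, adjusted p = 0.00500) were called too, but with median-ratio scaling they were at 0.82 (adjusted p = 0.0519) and 0.75 (adjusted p = 0.0698). That scaling also brought FZD6 to 0.95, FZD1 to 0.54 and WNT10B to 0.56, all still called, and RYK to -1.49. ZNRF3, at 0.02 and not called, was called lower at -0.51 with median-ratio scaling and at -0.56 with quantile normalization. With mitochondrial genes removed it was at -0.21 and not called.

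LEF1 was the largest difference of this contrast, at -6.89 (SE 0.13, adjusted p = 2.73e-08), and LGR4 followed at -2.72 (SE 0.23, adjusted p = 1.68e-05). FZD4 at -2.21 (SE 0.24), SFRP1 at -1.38 (SE 0.20), FZD8 at -1.25 (SE 0.18), WNT8B at -1.12 (SE 0.10) and RYK at -0.85 (SE 0.12) were lower in LNCaP. WNT2 at -2.05 (SE 0.10) was lower as well, although LNCaP and DUCAP were both under 0.1 TPM, so this value again came from VCAP. Both intracellular feedback genes, AXIN2 and NKD1, were among the 14 that were higher in LNCaP.

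DUCAP and VCAP, derived from the same patient, had the fewest differences. None of the 37 genes was higher in DUCAP with limma, at an adjusted or an unadjusted p under 0.05, and 7 were lower, against 4.24% and 14.0% of all genes. With quantile normalization 1 gene was higher in DUCAP, WNT7B at 0.61 (adjusted p = 0.0248), and 7 were lower. Over all genes 1762 were then higher and 1811 lower. WNT2 at -4.07 (SE 0.12, adjusted p = 8.52e-07) was by far the largest, and SFRP1 at -1.83 (SE 0.23, adjusted p = 0.00130) and WNT8B at -1.04 (SE 0.12, adjusted p = 7.90e-04) came next among those that held without any 1 sample. FZD6 at -0.81 (SE 0.13, adjusted p = 0.00358) did so too. FZD4 at -1.19 (SE 0.28, adjusted p = 0.0226), WNT5A at -0.87 (SE 0.21, adjusted p = 0.0247) and LRP6 at -0.80 (SE 0.17, adjusted p = 0.0129) were called with all samples, but lost their calls in 7, 4 and 3 of the 10 fits with 1 sample left out, each of them without DUCAP repeat 1, when the count was 4. Samples of LNCaP, DU145 and PC3 do not enter this difference. A fit without 1 of them changed only the error shared by all samples, and without a DU145 repeat more genes were called. LEF1, at 0.07 (SE 0.15, adjusted p = 0.849), was not called between DUCAP and VCAP.

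The scale understates the differences of genes that are near 0 in 1 group. With 0.1 TPM added in place of 1 TPM, 24 of the 64 differences named here moved by more than 1.5 times, all of them away from 0. TCF7L1 between the first 2 groups of lines went from 3.13 to 6.14 and WNT7A from 2.40 to 5.01, and WNT2 between DUCAP and VCAP went from -4.07 to -6.80.

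The rest of the pathway was described with a list of 58 further genes, which was compiled with earlier results of these data known, and 43 of them passed the filter. Between DU145 and PC3 and the other 3 lines, 26 were higher, 6 lower and 11 not called, against 51.9% higher and 22.5% lower over all genes. The split was 18 and 14 with quantile normalization, 19 and 13 with median-ratio scaling and 23 and 9 with mitochondrial genes removed. Over all genes these splits were 6019 and 6825, 6616 and 6092, and 7811 and 4932. The TLE co-repressors, partners of TCF and LEF factors in repression, differed among themselves. TLE4 at 2.79 (SE 0.16) and TLE2 at 2.75 (SE 0.24) were higher in DU145 and PC3 and TLE3 at -1.69 (SE 0.11) was lower. TLE1, named after its value was seen, was higher at 2.62 (SE 0.11), so 3 of the 4 were higher. PRICKLE1, a planar polarity gene, was higher at 2.70 (SE 0.13), and APCDD1, an inhibitor at the membrane, and DAAM1, an effector of polarity, were lower at -1.73 (SE 0.15) and -0.69 (SE 0.19). Of the destruction complex and its substrate, AXIN1 was higher at 1.06 (SE 0.10), CTNNB1, which encodes beta-catenin, at 0.79 (SE 0.13) and APC at 0.58 (SE 0.13). With quantile normalization CTNNB1 was at 0.29 (adjusted p = 0.0861) and APC at 0.04 (adjusted p = 0.794), while AXIN1 kept its call at 0.51. Of the kinases of the complex, named after their values were seen, CSNK1A1 was higher at 0.92 (SE 0.10), and GSK3A at -0.11 (SE 0.10) and GSK3B at -0.13 (SE 0.11) were not called. With quantile normalization GSK3A and GSK3B were called lower, at -0.64 and -0.68. CTNNB1 was at 72.9 to 156 TPM in LNCaP, DUCAP and VCAP and at 138 to 234 TPM in DU145 and PC3, so its levels overlapped and no line lacked it.

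In the other 3 contrasts the 43 genes gave 14 higher and 14 lower between DU145 and PC3, 23 and 7 between LNCaP and the pair DUCAP and VCAP, and 2 and 5 between DUCAP and VCAP. Over all genes the shares were 23.8% and 25.5%, 49.2% and 15.5%, and 4.24% and 14.0%. With quantile normalization the splits of the 43 genes were 16 and 10, 12 and 13, and 4 and 5. Over all genes they were then 4348 and 4290, 5352 and 5149, and 1762 and 1811. The 2 that were higher in DUCAP were WLS, at 2.96 (SE 0.25, adjusted p = 1.51e-04), which carries WNT ligands to the cell surface, and TNFRSF19, at 1.04 (SE 0.15, adjusted p = 0.00287), a receptor and WNT target. These 2 were named after their values were seen.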

How the data were processed

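Bulk RNA-seq values of 10 samples (5 untreated lines, 2 biological repeats each) were analysed. Lines and repeat numbers were taken from the labels. A second number in the titles, which for DU145 and PC3 is not always the repeat number, was not used. Per the labels, polyA RNA was made into strand-specific libraries, and FastQC 0.11.9, Trim Galore 0.6.5, STAR 2.7.2b and RSEM 1.3.3 were used by the submitters with GRCh38. The authors deposited RSEM's TPM per gene symbol, without scaling between samples. How rows that share a symbol were merged, and RSEM's strand setting, are not given in the sources used here.

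Values were taken as log2(TPM + 1). A gene was tested if 2 or more samples had 1 TPM or more. A limma model (version 3.58.1, R 4.3.3) was fitted over all 10 samples with each line as its own term, 4 orthogonal contrasts and a mean-variance trend, and p-values were adjusted by Benjamini-Hochberg across every tested gene and called at 0.05. Up to 8 called genes per direction and contrast, those with the largest differences, were given with test values, and of the further pathway genes up to 3 per direction of the first contrast plus CTNNB1, APC and AXIN1. The members and lists were chosen with earlier results of these data known. The fit was tested on simulated data. Coordinates and promoter windows are from RefSeq, GRCh38.p14. Depth cannot be read from TPM, and counting intervals were therefore left out. Tables and plots were made in Python 3.11.15 (pandas 2.3.3, numpy 2.4.6, matplotlib 3.10.9).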

Additional observations from a re-analysis of the deposited data

How the results depend on the processing

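Of the 64 differences chosen by the naming rule, 54 kept their direction and call under every alternative (0.1 TPM added, no filter, a filter of 5 TPM where the gene passed it, 2 other scalings, mitochondrial genes removed, no trend, a replicate block and each sample left out in turn). The other 10 lost their call under at least 1 alternative, and none of the 64 changed sign. Of the values given outside that rule, WNT3, ZNRF3 and RYK changed sign in the first contrast. ZNRF3 did so too between LNCaP and the pair DUCAP and VCAP, as given above. The genes higher in LNCaP than in DUCAP and VCAP were 14, against 8 with a filter of 5 TPM, under which fewer genes were tested, and 9 with quantile normalization and with median-ratio scaling, where the cause was not tested beyond the shift of the median of all genes. Genes called between DUCAP and VCAP were 7, all lower in DUCAP, and 4 to 13 with 1 sample left out (lower in DUCAP, also 4 to 13). None was higher in DUCAP, against 1 without a filter (WNT11, at 0.67) and 1 with quantile normalization (WNT7B). The other counts of the 47 genes stayed within 1.5 times. Among the 43 further pathway genes, those lower in DU145 and PC3 went from 6 to 14 with quantile normalization and 13 with median-ratio scaling, and those higher in LNCaP from 23 to 12 and lower from 7 to 13 with both.

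The labels do not tie samples of the same repeat number to each other. Over the 10 pairs of lines the correlation of same-numbered deviations ran from -0.19 to 0.25 with a mean of 0.01, and 3 were over 0.1, so the numbers were not taken to pair the samples. With the replicate block, 22 members were higher and 7 lower in DU145 and PC3, and of the 64 differences LRP6 in that contrast was the only one to lose its call (-0.27, adjusted p = 0.0622). Depth is unknown, and 2 repeats per line limit the precision.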

Other observations

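In 3 places a pair of the ligand genes stands side by side on a chromosome with no other protein-coding gene between them (RefSeq, GRCh38.p14), and in each pair 1 gene was above the other in all 10 samples. WNT10B (chr12:48965340-48971735) ranged from 0.33 to 7.10 TPM, while WNT1, 6586 bases away at chr12:48978322-48982620, was at 0 throughout. WNT3 (chr17:46762506-46818692) ranged from 1.46 to 5.21 TPM, and WNT9B, 14496 bases away at chr17:46833189-46886738, did not exceed 0.41 TPM. WNT10A (chr2:218874116-218893928) ranged from 0.05 to 2.22 TPM, and WNT6 (chr2:218859805-218874233), whose end overlaps it by 118 bases, did not exceed 0.05 TPM. Reads of the shared 118 bases could be assigned to either gene.

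Some members have an antisense or divergent partner in the table, and since the strand setting of the quantification is not given, reads of overlapping partners are uncertain. FZD10-AS1 was at 2.41 and 3.14 TPM in VCAP and at 0.09 TPM or less elsewhere, the line in which FZD10 itself was at 0.29 and 0.30 TPM. FZD4-DT was at 1.72 and 1.65 TPM in PC3, the line with the most FZD4, and at 0.73 TPM or less elsewhere. LEF1-AS1 stayed at 0.36 TPM or less, including the lines with abundant LEF1.

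The genes that follow, for the release and support of WNT ligands, were chosen after their values were seen. PORCN, the enzyme that attaches the lipid to WNT proteins, was at 11.2 and 11.9 TPM in LNCaP, 15.9 and 11.2 in DU145, 27.3 and 24.9 in PC3, and between 1.43 and 2.26 TPM in DUCAP and VCAP. WLS was at 2.37 and 3.24 TPM in VCAP, the line with 15.6 to 17.9 TPM of WNT2, and between 15.7 and 52.5 TPM in the other lines. RSPO3, a secreted R-spondin that binds LGR receptors, was at 3.45 and 2.95 TPM in DU145 and at 0.01 TPM or less elsewhere. In DU145 LGR5 was at 0 and LGR4 at 41.8 and 21.8 TPM.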
